A study of Homo sapiens with 7 samples.

Results

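Rb occupancy was examined at the promoters of the kinesin genes and the CENP genes, 64 of the 19970 protein-coding genes on chromosomes 1 to 22 and X. The members were chosen by symbol alone, KIF followed by a number (39 genes) or CENP followed by a letter (25 genes), a rule that uses no measured value, although this gene group was picked with earlier results of these data known. CUT&RUN, in which an antibody directs a nuclease to release the DNA around a bound protein, was carried out in ZR-75-1 cells, a long-established human breast cancer line that is positive for the oestrogen receptor. Parental cells treated for 4 days with DMSO or with 500 nM palbociclib, a CDK4/6 inhibitor, gave 2 Rb libraries per treatment. RB1 KO cells with DMSO and RB1 KO cells with palbociclib gave 1 Rb library each, and parental cells with palbociclib gave 1 IgG2a library as a negative control. The study's methods describe knockout lines grown from single sorted cells, and groups of 1 library have no replicate check.

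Kinesins are motor proteins that move along microtubules. Mitotic kinesins build the spindle, move chromosomes and complete cytokinesis, whereas transport kinesins carry vesicles, organelles and protein complexes in cells that need not be dividing. Most CENP proteins form the kinetochore on centromeric chromatin, with CENPA as the centromeric histone variant, an inner layer bound to it and an outer layer that meets the microtubule. Many of these genes are expressed late in the cell cycle, and Rb and its relatives p107 and p130 are known to restrain cell cycle genes through E2F sites. The DREAM complex, which holds p107 or p130 and not Rb, also acts through the cell cycle genes homology region (CHR). Genes were classed from general knowledge as 13 mitotic kinesins, 13 transport kinesins, 13 other kinesins, 16 inner kinetochore CENP genes, 2 outer kinetochore CENP genes and 7 other CENP genes.

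A few promoter stretches near the TSS are printed as examples, and they are not typical, since CHR letters lay within 100 bp of the canonical TSS at 21 of 64 members and E2F letters at 5 of 64. The first group holds the CHR letters TTTGAA or TTCGAA, or their reverse complement, in capitals, and was chosen to show mitotic kinesins and CENP genes with strong, weak or no Rb peaks. All are read 5′ to 3′ on the strand of the gene, on GRCh38.
KIF18B, chr17:44947754-44947783, minus strand: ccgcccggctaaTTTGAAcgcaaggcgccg
KIF11, chr10:92593090-92593119, plus strand: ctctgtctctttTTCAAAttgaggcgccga
KIF22, chr16:29790712-29790741, plus strand: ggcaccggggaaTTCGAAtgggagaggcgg
KIF23, chr15:69414282-69414311, plus strand: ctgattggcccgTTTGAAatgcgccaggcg
CENPA, chr2:26786026-26786055, plus strand: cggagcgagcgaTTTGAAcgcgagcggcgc
CENPM, chr22:41947110-41947139, minus strand: gactcagggcggTTTGAAagatcggcgcgc
CENPF, chr1:214603223-214603252, plus strand: ggctgcgggcagTTTGAAttagactctggg
KIF4A, chrX:70290058-70290087, plus strand: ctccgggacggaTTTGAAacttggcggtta
KIF4B, chr5:155013746-155013775, plus strand: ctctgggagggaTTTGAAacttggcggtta
KIF4A and its copy KIF4B are shown side by side because their sequences resemble each other, so the placement of reads between them is uncertain. The same caution holds for CENPVL1, CENPVL2 and CENPVL3. The second group holds an E2F sequence in capitals close to an Rb summit.
CENPH, chr5:69189558-69189587, plus strand: tccatttagtgGCGGGAAAagcgacctttt
CENPS, chr1:10430430-10430459, plus strand: ctcgcgccgcgGCGGGAAAatccgacctgg

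Rb peaks lay at few of these promoters with DMSO and at most of them with palbociclib. A promoter peak was a peak overlapping the stretch from 2000 bp upstream to 500 bp downstream of any annotated TSS of the gene. With DMSO, 10 members had a promoter peak in replicate 1 and 9 in replicate 2, beside 5.22% and 4.28% of all protein-coding genes. With palbociclib, 40 and 37 members had one, beside 39.6% and 39.0% of all genes. Both RB1 KO libraries had no peak at any member, beside 0.00501% of all genes in each. The lists set the scale of these counts, since they held 996 and 816 peaks with DMSO, 8399 and 8256 with palbociclib, 65 and 51 in RB1 KO cells and 2648 with IgG2a. Sequencing depth is unknown from the lists, and the number of peaks and the treatment cannot be told apart.

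In both palbociclib libraries 33 of 64 members (51.6%) had a peak, beside 34.9% of all genes, and in 32 of them the peaks of both libraries overlapped, beside 34.4% of all genes. At least 1 palbociclib library had a peak at 44 members (68.8%), beside 43.7% of all genes. A peak in both DMSO libraries was found at 7 of 64 (10.9%), beside 2.9% of all genes, and a peak in 1 DMSO library only at 5 (7.81%), beside 3.69%. Peaks in both palbociclib libraries and in neither DMSO library were found at 21 members (32.8%), beside 28.4% of all genes. A peak in 1 palbociclib library only was found at 11 members (17.2%), beside 8.82% of all genes. No peak in any parental Rb library was found at 20 members (31.2%), beside 56.3% of all genes.

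**Figure D1:**
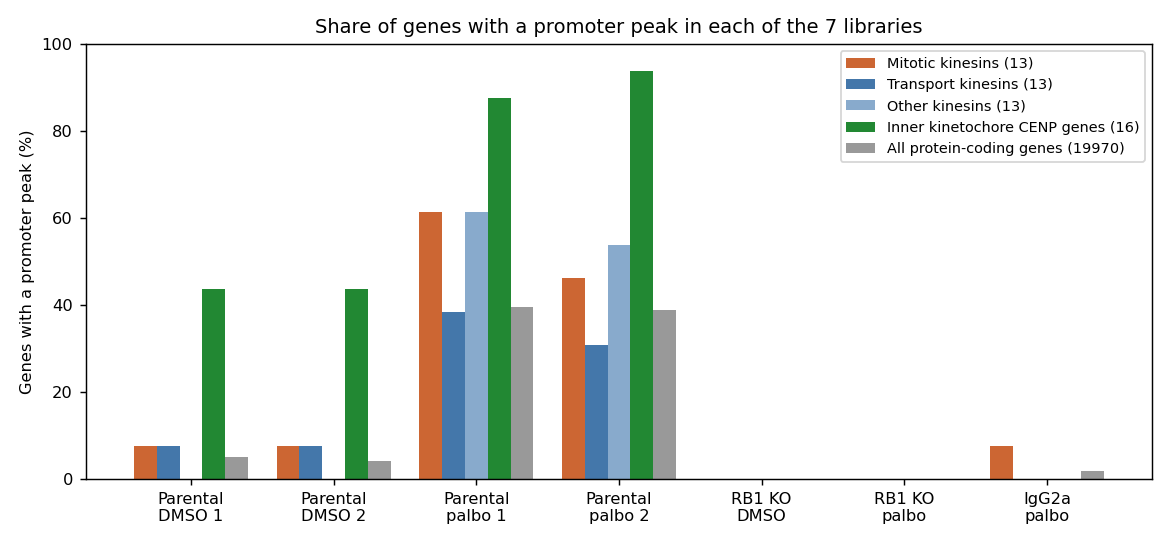
Share of genes in percent with a promoter peak in each of the 7 libraries, for the 4 largest gene classes and for all protein-coding genes, with the class sizes in the key. Inner kinetochore CENP genes reach 43.8% in both DMSO libraries and 87.5% and 93.8% with palbociclib, above all protein-coding genes in those 4 libraries, and transport kinesins reach 38.5% and 30.8% with palbociclib.

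Most inner kinetochore genes had an Rb peak. With palbociclib 14 of 16 (87.5%, exact 95% interval 61.7 to 98.4%) had a peak in both libraries, beside 34.9% of all genes. Already with DMSO 9 of 16 (56.2%) had one in at least 1 library, beside 6.59% of all genes. The intervals treat genes as a sample and cover counting error only, and neighbouring genes can share a peak. Both outer kinetochore genes, CENPE, a kinesin motor that aligns chromosomes, and CENPF, had peaks in both palbociclib libraries and none with DMSO. Their fold enrichment, defined below, was 5.27 and 4.3 for CENPE and 7.42 and 8.43 for CENPF. CENPE was no longer counted with fold enrichment of at least 5 or with −log10 q of at least 5.

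CENPX, which belongs to a histone-fold complex of the kinetochore and of DNA repair, had the most significant peak of the members. Its fold enrichment, the authors' ratio of the fragments piled up at the summit to the background nearby, was 10.2 and 7.3 with DMSO and 59.7 and 54.1 with palbociclib. By −log10 q its peak ranked 2 and 3 among all peaks of the palbociclib lists. The stretch is shared with the promoter of LRRC45, so the peak cannot be assigned to CENPX alone.

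CENPM, a member of the CENP-H/I/K/M subcomplex, had 15.4 and 14.7 with DMSO and 53.1 and 60.3 with palbociclib, with no other promoter at the peak. CENPH, of the same subcomplex, had 7.1 and 4.69 with DMSO and 27.9 and 25.4 with palbociclib. Its summits lay 40 and 103 bp downstream of the canonical TSS in the palbociclib libraries, both downstream of the E2F letters printed above. CENPU had 5.25 and 5.43 with DMSO and 15.5 and 10.4 with palbociclib.

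CENPT, which links centromeric DNA to the outer kinetochore, had 5.1 and 4.97 with DMSO and 14.3 and 21.2 with palbociclib. These peaks lay about 5.5 kb inside the gene from its canonical TSS, 5526 and 5599 bp with palbociclib, at an annotated alternative start that coincides with the THAP11 promoter. A second peak closer to the canonical start, at 657 and 719 bp, had a fold enrichment of 10.4 and 9.5 with palbociclib and lay at the NUTF2 promoter.

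CENPQ, CENPP, CENPN, CENPS, CENPL, CENPI, CENPK, CENPC and CENPO also had a peak in both palbociclib libraries. CENPQ had 17.3 and 19.6 with palbociclib and no peak with DMSO. CENPP had 15.2 and 15.6 with palbociclib and 5.97 in DMSO replicate 2 only, and CENPL had 9.05 and 8.24 with palbociclib and 4.43 in DMSO replicate 2 only. CENPN had 9.52 and 11.8 with palbociclib and 4.05 in DMSO replicate 1 only, and CENPS had 9.9 and 9.83 with palbociclib and 5.08 in DMSO replicate 1 only. For these 4 genes the DMSO peak was thus present in 1 of 2 libraries. CENPS-CORT, a readthrough transcript unit, shares the promoter and the peaks of CENPS and adds no separate measurement. It is counted as a member above, and without it 9 and 9 of 63 members had a peak with DMSO, 39 and 36 with palbociclib and 32 in both palbociclib libraries.

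CENPA, the centromeric histone itself, had a peak in palbociclib replicate 2 only, at a fold enrichment of 5.16 with its summit 33 bp upstream of the nearest TSS. CENPW, a histone-fold partner of CENPT, had no peak in any parental Rb library. Among the other CENP genes, CENPB, which binds the centromeric CENP-B box, had 5.59 and 8.6 with palbociclib, and CENPJ, a centriole protein, had 10.7 and 5.39. CENPV and CENPVL1 to CENPVL3 had no peak.

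**Figure D2:**
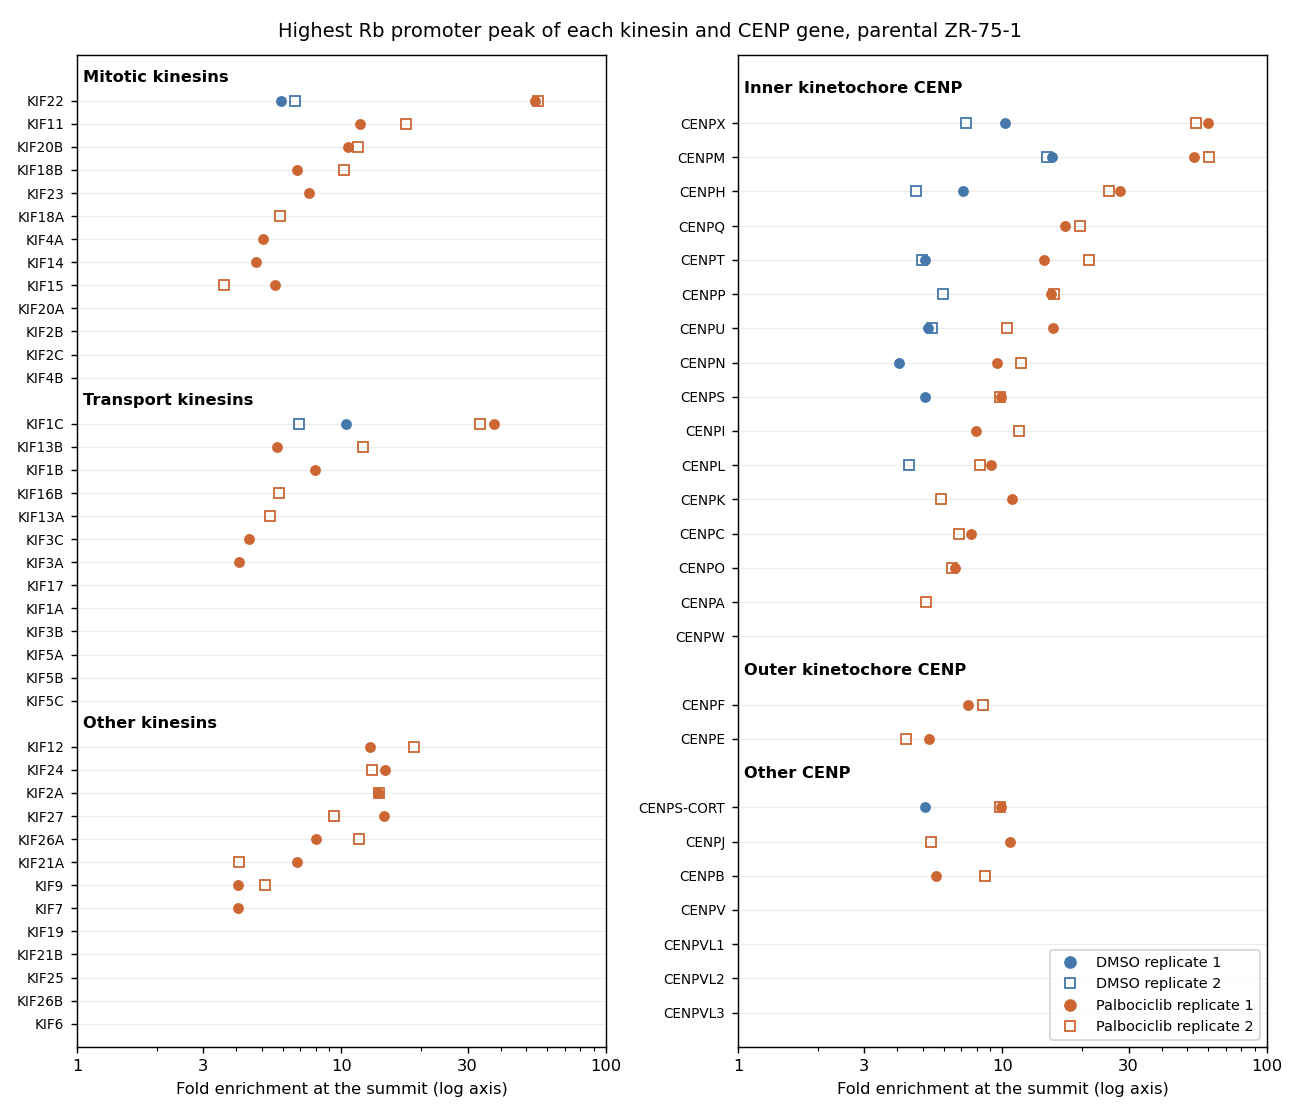
Fold enrichment at the summit of the highest promoter peak of each of the 64 members in the 4 parental Rb libraries, on a log axis, with blue for DMSO, orange for palbociclib, circles for replicate 1 and open squares for replicate 2, and no symbol where the list holds no peak. Every member with a DMSO symbol also has both palbociclib symbols, at higher values. This is not particular to the members, since all 580 protein-coding genes with a peak in both DMSO libraries had one in both palbociclib libraries. KIF22, CENPX and CENPM reach above 50 with palbociclib, and the KIF22 palbociclib symbols are peaks at the MAZ promoter, away from its DMSO site.

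At 6 members the highest peaks of all 4 parental lists overlapped at 1 site, and these were compared between treatments. KIF22 also had overlapping peaks in all 4 lists at its own promoter, given below with the mitotic kinesins, but its highest palbociclib peak lay elsewhere. They were CENPX, CENPM, CENPH, CENPT, CENPU and KIF1C, with ratios of the palbociclib mean to the DMSO mean of 6.5, 3.77, 4.52, 3.52, 2.42 and 4.13. For each gene both palbociclib values lay above both DMSO values, and the exact two-sided permutation test over libraries gave p = 0.333, the smallest that this test can give with 2 libraries against 2. All 555 genes with 1 such site had both palbociclib values above both DMSO values (100%), so the same order at 6 of 6 members is nothing particular to them. The median ratio was 3.97-fold over the 6 members and 3.65-fold over the 555 genes. Genes enter only if they passed the threshold with DMSO, and the condition that the 4 highest peaks overlap was added after the data had been seen.

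Mitotic kinesins had a peak in both palbociclib libraries at 5 of 13 genes (38.5%, exact 95% interval 13.9 to 68.4%), and transport kinesins at 2 of 13 (15.4%, 1.92 to 45.4%), beside 34.9% of all genes. The difference of 23.1 percentage points rests on 3 genes, the intervals overlap widely and the mitotic share lies near that of all genes. These shares also depend on the classing. KIF2A and CENPE, motors of the spindle pole and of chromosome alignment, were classed elsewhere and had peaks in both palbociclib libraries. By library, 8 and 6 mitotic kinesins and 5 and 4 transport kinesins had a peak, beside 39.6% and 39.0% of all genes. The difference came to 0.0 points, with 1 gene in each class, when only the 816 best peaks of every parental list were counted. The other kinesins had a peak in both libraries at 7 of 13 genes (53.8%).

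The mitotic kinesins with a peak in both palbociclib libraries were KIF22, KIF11, KIF20B, KIF18B and KIF15. KIF22, a chromokinesin that binds DNA, was the only one with a peak with DMSO, at 5.89 and 6.67, 82 and 85 bp upstream of the nearest TSS. Its highest palbociclib peaks, 54.2 and 55.2, lay at the other end of the gene, 15098 and 15075 bp from its canonical TSS, at the MAZ promoter. At the DMSO site itself, palbociclib gave 25.2 and 26.4, with summits 75 bp upstream of the nearest TSS in both libraries.

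KIF11, the motor that separates spindle poles, had 11.8 and 17.6 with palbociclib. An IgG2a peak of 4.51 was also assigned to KIF11, the only member with an IgG2a peak, beside 1.95% of all genes. It lay 19003 bp from the canonical TSS, at an upstream start shared with IDE, away from these Rb summits. Rb peaks of 3.58 and 3.1 were also called near that start with palbociclib, and the one in replicate 2 overlapped the IgG2a peak. KIF20B, which acts in cytokinesis, had 10.6 and 11.6, and KIF18B, which limits microtubule length, had 6.81 and 10.2. KIF15, a spindle motor, had 5.59 and 3.61, but the peaks of the 2 libraries did not overlap each other.

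The remaining 8 mitotic kinesins had a peak in 1 palbociclib library or in none. KIF23, a subunit of centralspindlin, had 7.54 in replicate 1, KIF4A 5.04 in replicate 1, KIF14 4.77 in replicate 1 and KIF18A 5.84 in replicate 2. KIF20A, KIF2C, KIF2B and KIF4B had no peak. Within their lists these 4 single-library values ranked between the 22.4 and 55.6 percentiles of fold enrichment.

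Among transport kinesins, KIF1C, a carrier of dense-core vesicles, had 10.4 and 6.91 with DMSO and 37.8 and 33.4 with palbociclib, at a stretch shared with the INCA1 promoter. KIF13B had 5.71 and 12.1 with palbociclib and no peak with DMSO. KIF1B, KIF3A and KIF3C had a peak in palbociclib replicate 1 only, at 7.92, 4.09 and 4.46, and KIF13A and KIF16B in replicate 2 only, at 5.39 and 5.81. KIF1A, KIF3B, KIF5A, KIF5B, KIF5C and KIF17 had no peak.

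The other kinesins with the highest mean palbociclib values were KIF12 (12.8 and 18.8), KIF24 (14.6 and 13), KIF2A (13.7 and 13.9), KIF27 (14.5 and 9.37) and KIF26A (8.0 and 11.7). The KIF12 summits lay 653 and 661 bp downstream of its canonical TSS. KIF12 was not counted when only protein-coding transcripts or only the canonical transcript gave the TSS. KIF24, a regulator of centriole capping, and KIF2A, a microtubule depolymerase of spindle poles, had their summits within 89 bp of a TSS in both libraries. None of the 13 had a peak with DMSO, beside only 6.59% of all genes with one in at least 1 DMSO library, so the absence is not particular to them. KIF7, a Hedgehog pathway regulator, had a peak of 4.06 in replicate 1 only.

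Summits lay close to the TSS. In the palbociclib libraries the median absolute distance to the nearest TSS of the gene was 98 and 65 bp over members with a peak, beside 103 and 101 bp over all genes with a peak. Within 250 bp lay 35 of 40 and 33 of 37 member summits, 87.5% and 89.2%, beside 81.4% and 82.0% of all genes. All inner kinetochore summits, 14 and 15, lay within 250 bp, as did 6 of 8 and 5 of 6 mitotic kinesin summits and 4 of 5 and 3 of 4 transport kinesin summits. With DMSO all 10 and 9 member summits lay within 250 bp, beside 80.3% and 81.6% of all genes with a peak. Upstream of the TSS lay 7 and 6 of the member summits, beside 624 of 1043 and 547 of 854 over all genes.

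**Figure D3:**
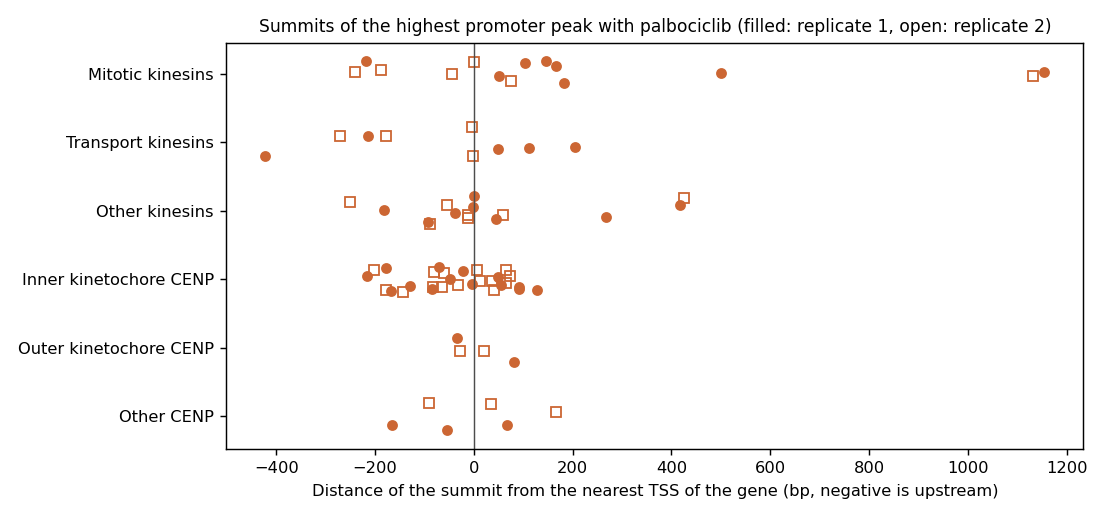
Distance in bp from the nearest TSS of the gene to the summit of its highest promoter peak with palbociclib, by gene class, with filled circles for replicate 1, open squares for replicate 2 and vertical scatter only to separate points. Inner kinetochore summits all lie within 250 bp, and the points beyond 1000 bp are the KIF22 peaks at the MAZ promoter.

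Many member promoters are shared. Of the 33 members with a peak in both palbociclib libraries, 17 (51.5%) had a peak that overlapped the promoter of another protein-coding gene, beside 34.5% of all such genes, or 16 of 32 without CENPS-CORT. For the inner kinetochore genes it was 9 of 14, among them MMUT with CENPQ, NOL8 with CENPP and PTRHD1 with CENPO. Counting only peaks at no other promoter left 16 of 64 members, beside 4568 of 19970 protein-coding genes (22.9%). The share of members then lay close to that of all genes, whereas it was 51.6% beside 34.9% with all peaks. Of the 16, 5 were inner kinetochore genes, 3 mitotic kinesins and 1 a transport kinesin.

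Motifs were compared first at the summits. E2F letters (TTTCCCGC, TTTGGCGC, TTTGCCGC or TTTCGCGC, both strands) lay within 100 bp of a palbociclib summit at 3 of 33 members with peaks in both libraries (9.09%), beside 8.29% of all such genes, and 2 of the 3 are CENPS and CENPS-CORT with the same sequence. CHR letters (TTTGAA or TTCGAA, both strands) did so at 9 of 33 (27.3%), beside 6.47%, with 6 of 14 inner kinetochore genes, 1 of 5 mitotic kinesins and 0 of 2 transport kinesins. These are summits of the highest peak, which for KIF22 lies at the MAZ promoter. With the peak nearest to the TSS, a choice added later, CHR letters lay near the summit at 11 of 33 members (33.3%), beside 6.44%, and at 2 of 5 mitotic kinesins, KIF18B and KIF22. CCAAT, the letters bound by NF-Y, did so at 12 of 33 (36.4%), beside 32.8%. A match is only a match of letters, and these shares were not tested.

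Windows around the canonical TSS were added after the data had been seen, so that genes without a peak could be included. Within 100 bp of the canonical TSS, CHR letters were present at 10 of 13 mitotic kinesins (76.9%), 0 of 13 transport kinesins and 8 of 16 inner kinetochore genes, beside 6.77% of all genes. Among mitotic kinesins they were present at 5 of 5 with a peak in both palbociclib libraries and at 5 of 8 without. KIF4A and its copy KIF4B are both among the 10 and among the 5 of 8, so their matches are not independent. In the window from 250 bp upstream to 50 bp downstream the counts were 10 of 13 and 1 of 13 beside 12.8% of all genes, and from 2000 bp upstream to 500 bp downstream they were 13 of 13 and 10 of 13 beside 80.1%. Within 50 bp of a summit 1 of 5 mitotic kinesins had the letters. The difference between mitotic and transport kinesins was therefore seen in the short TSS windows and was small in the long window, and at summits only 2 transport kinesins could be compared.

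Base composition moved with it. From 250 bp upstream to 50 bp downstream the median GC content was 62.3% and 61.5% for mitotic kinesins with and without a peak in both libraries, and 73.0% and 70.7% for transport kinesins. Over all genes it was 68.0% with and 60.3% without such a peak. The part of base composition in the CHR counts was not tested.

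**Figure D4:**
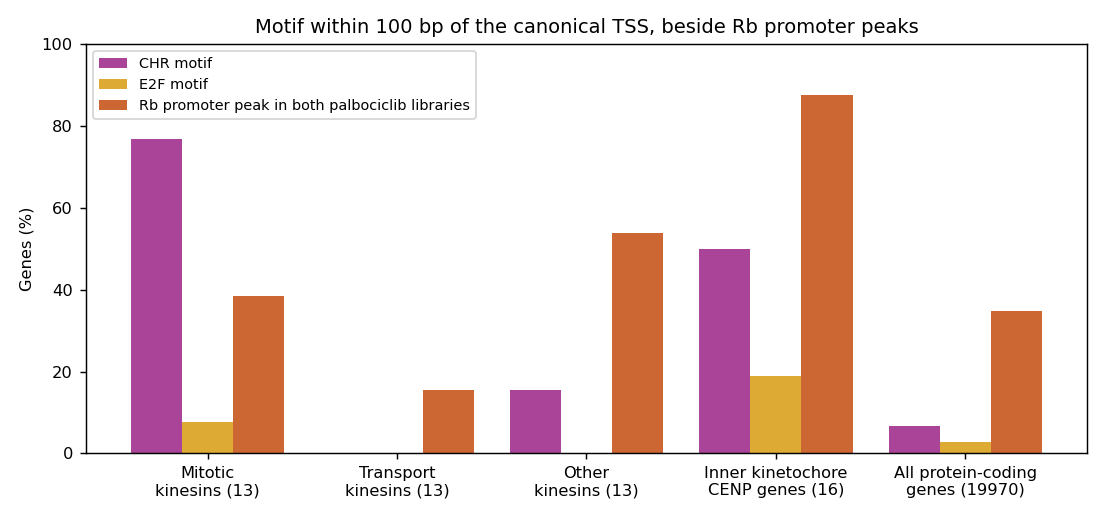
Share of genes in percent with CHR or E2F letters within 100 bp of the canonical TSS, a window added after the data were seen, beside the share with an Rb promoter peak in both palbociclib libraries. Mitotic kinesins stand at 76.9% for CHR and 38.5% for the peak. Inner kinetochore CENP genes have the CHR letters at 8 of 16 genes and the peak at 87.5%, beside 34.9% of all protein-coding genes for the peak.

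A list of 28 related genes outside the symbol rule, from the outer kinetochore, CENPA loading, the corona and the kinesin-14 and cargo adaptors, was read beside the members. A peak in both palbociclib libraries was found at 22 of 28 (78.6%) and in both DMSO libraries at 4 of 28 (14.3%), beside 34.9% and 2.9% of all protein-coding genes. In both palbociclib libraries the outer kinetochore genes had 9 of 10 and the CENPA loading genes 5 of 5. The kinesin-14 and cargo adaptor genes had 6 of 9 and the corona genes 2 of 4. The highest mean palbociclib values were 36.2 for MIS12, 29.8 for KIFC2 and 29.0 for NSL1.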

How the data were processed

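The deposited files are 1 peak list per library. Per the study's methods and the submitters' processing notes, the authors trimmed the reads and used Bowtie2 2.3.4.1 for alignment to hg38. They discarded reads from blacklisted regions and mitochondria, kept duplicates and called peaks in each library separately with MACS2 2.2.7.1 and an IgG control. The control of the IgG2a list is not given in the sources used here. The deposited fold enrichment (a ratio of pileup to local background at the summit), −log10 p, −log10 q and integer score are the authors' values. The score was not used. The methods give a range of sequenced clusters per sample, but the lists do not give the depth of each library, and weak peaks near the calling threshold can be missed in either library.

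Promoters came from GENCODE 44 on GRCh38, and peak ends lay within the chromosome lengths on all 23 chromosomes. A gene's value is its promoter peak with the highest fold enrichment, with at least 1 bp of overlap. Intervals are exact Clopper-Pearson (95%). Pileups were recovered as the whole number whose Poisson tail gives the deposited p-value. Promoter assignment and pileup recovery were tested on simulated data, and 248 of 248 genes and 495 of 495 simulated peaks were recovered. Scripts used Python 3.11.15, NumPy 2.4.6, pandas 2.3.3, SciPy 1.17.1 and matplotlib 3.10.9. Named genes are all members with a DMSO peak, the 10 members with the highest mean with palbociclib, mitotic kinesins and CENP genes lacking a peak in both palbociclib libraries, the 5 highest transport and other kinesins, members with a control peak or a peak in 1 palbociclib library only, and the 3 highest related genes. CENPI, CENPK, CENPC, CENPO, CENPB, CENPJ, CENPE, CENPF, KIF11, KIF15, KIF18B and KIF20B were named in addition to complete their classes, where the rule had not. The members, classes and lists were chosen with earlier results of these data known. Replicate numbers in the titles were not shown to pair samples, since deviations of equal-numbered libraries correlated at r = 0.0655 over 555 genes. The titles do not say whether replicates came from separate cultures, and the study's reporting describes biological replicates.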

Additional observations from a re-analysis of the deposited data

How the results depend on the processing

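No difference or log2 ratio changed sign under any alternative. Counts and absolute distances have no sign, so only their size could be compared. Limiting each parental list to its 816 best peaks gave 6 members, 1 mitotic kinesin, 1 transport kinesin and 4 inner kinetochore genes with a peak in both palbociclib libraries, beside 3.82% of all genes, and a mitotic minus transport difference of 0.0 points. Counting only peaks at no other promoter gave 16, 3, 1 and 5 genes, beside 22.9% of all genes, and 15.4 points. The difference was also 15.4 points with the window from 1000 bp upstream to 100 bp downstream, with −log10 q of at least 5, with fold enrichment of at least 5, with overlapping peaks of both libraries (added after seeing the data) and without palbociclib replicate 1. Leaving out 1 palbociclib library gave 37 to 40 members, beside 39.0% to 39.6% of all genes. It also gave 6 to 8 mitotic kinesins, 4 to 5 transport kinesins, 14 to 15 inner kinetochore genes and a difference of 15.4 to 23.1 points. With −log10 q of at least 5, 4 members had a peak in both DMSO libraries, beside 1.61% of all genes. By percentile rank within the list, the 6 compared members moved up by a median of 28.9 points, on a scale that differs from the log2 ratio. With the replicate block, the mean difference in members per library was 29.0 and the log2 ratio 2.0, against 29.0 and 1.99 without it; it changed no call, and its smallest p is 0.5. Without the condition that the 4 peaks overlap, 7 members gave 2.07. Of the 33 members with a peak in both palbociclib libraries, E2F letters were at 8 in the whole canonical window (24.2%, beside 22% of all such genes) and at 5 (15.2%) in each of the short TSS windows added later, beside 7.51% from 250 bp upstream to 50 bp downstream and 4.8% within 100 bp. CHR letters were at 5 within 50 bp of the summit (15.2%, beside 3.23%) and at 27 in the whole window (81.8%, beside 77.6%). CCAAT was at 29 in the whole window (87.9%, beside 93.3%). The cause of these shifts was not tested, beyond the fewer peaks or wider windows that the alternatives hold by construction. Of all alternatives of these results, 26 were counted as moved and 79 stayed within their limits.

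Values in lists depend on a calling threshold, so no peak means none called, not no Rb. Fold enrichment was not scaled between libraries, and the permutation test over 2 libraries against 2 cannot give a p under 0.333.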
